A study of Mus musculus with 6 samples.

Results

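The genes described here encode the hypoxia-inducible factor (HIF) subunits and the enzymes that sense oxygen for them: *Hif1a*, *Epas1* and *Hif3a* (α subunits), *Arnt* and *Arnt2* (β partners), *Vhl*, the prolyl hydroxylases *Egln1*, *Egln2* and *Egln3*, and the asparaginyl hydroxylase *Hif1an*. They are 10 of the 21951 protein-coding genes of GENCODE M21 (mm10), taken as a named family, with earlier results of these data known. Every ATACseq peak in a gene body or within 20 kb of it was followed, which gave 191 of the 236686 deposited peaks. All but 14 of these fell on 33 of the 41308 consensus peaks of the series, a consensus peak being a stretch of over 200 bp shared by both replicates of a condition and merged across conditions. A peak within 2000 bp of an annotated start site is called a promoter peak. Of the 33 consensus peaks, 10 were promoter peaks of the 10 genes, 7 were promoter peaks of neighbouring genes only, and 16 lay away from any promoter.

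ATACseq was carried out on GL261, a mouse glioma cell line stably expressing the GFP vector pEGFP-N1, which all libraries share. Cells were held at 21% O2 (normoxia), 1% O2 or <0.1% O2, the hypoxic cells for 16 h in a chamber with CO2, and fixed with formaldehyde before lysis. Each of the 3 conditions had 2 libraries. The labels do not say whether the replicates came from separate cultures, so the p-values measure the spread between these libraries only, in a single line carrying a single vector, and the comparisons of both hypoxic levels share the normoxic libraries. Promoter peaks were present in all 6 libraries for 8 of 9 glial and glioma genes of a marker list (not for *Egfr*) and in no library for 5 of 5 myeloid and lymphoid genes. Of 2 neuronal genes 1 (*Syt1*) and of 2 endothelial genes 0 had one in all 6, but *Pecam1*, which marks endothelial cells, had one in 5.

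HIF is a transcription factor made of an oxygen-labile α subunit and a stable β subunit. In the presence of oxygen, the prolyl hydroxylases PHD1, PHD2 and PHD3 (*Egln2*, *Egln1* and *Egln3*) mark the α subunit for pVHL, the substrate receptor of a ubiquitin ligase, and FIH (*Hif1an*) blocks its binding to coactivators. When oxygen falls the α subunit persists, pairs with ARNT and binds the hypoxia response element, whose core is ACGTG or GCGTG. *Egln3* and *Egln1* are themselves known HIF targets. Chromatin accessibility of a gene is not its expression, and the files analysed here hold neither RNA nor protein measurements.

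The deposited lists held 33006 and 36188 peaks in normoxia, 42807 and 41783 at 1% O2, then 43554 and 39348 at <0.1% O2, and the genome coverage read from them was lowest in the normoxic libraries (2.16 and 2.36, against 2.93 to 3.35 in hypoxia). The height of a peak is given as the scaled summit pileup, the number of fragments over the summit divided by a size factor of the library. It was tested with limma in a fit of all 6 libraries over the 28432 peaks present in each of them, and a change passed the test at a Benjamini-Hochberg adjusted p under 0.05. In an alternative the GC trend was subtracted, which is the median deviation of each library among peaks of like GC content. That step also removes a change shared by such peaks. The deposited fold, the authors' enrichment over the local background of the same library, was followed beside the pileup as a percentile rank among the 28432 peaks. With no control sample named, that background is not independent of the peak.

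The sequences of 4 peaks away from promoters and of 2 promoters are shown because the results below turn on them. The first pair of peaks rose most by summit pileup at both hypoxic levels, and the *Epas1* pair stand for a gene without a promoter peak. The promoters of *Hif1a* and *Egln1* were lower at <0.1% O2. Capitals mark ACGTG or GCGTG on either strand (read on the printed strand also as CACGT and CACGC) and TGANTCA, the AP-1 site. Each peak window holds 300 bases around the summit on the plus strand, and each promoter the 200 bases before the start site on the strand of the gene, from the GRCm38 (mm10) assembly.
Egln3 intron 1 (chr12:54191964-54192263): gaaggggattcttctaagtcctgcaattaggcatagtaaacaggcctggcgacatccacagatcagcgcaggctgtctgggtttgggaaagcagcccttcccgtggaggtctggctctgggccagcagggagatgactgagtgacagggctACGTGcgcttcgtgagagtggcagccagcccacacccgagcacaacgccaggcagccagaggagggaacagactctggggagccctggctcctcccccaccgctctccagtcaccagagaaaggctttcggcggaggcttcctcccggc
Hif3a side, intron of Ppp5c (chr7:17017047-17017346): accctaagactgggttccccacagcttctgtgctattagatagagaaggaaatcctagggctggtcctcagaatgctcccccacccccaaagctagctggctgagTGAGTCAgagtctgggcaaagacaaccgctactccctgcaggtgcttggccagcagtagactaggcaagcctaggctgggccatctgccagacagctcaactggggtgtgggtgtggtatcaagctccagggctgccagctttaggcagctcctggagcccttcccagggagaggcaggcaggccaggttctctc
Epas1 intron 2 (chr17:86801291-86801590): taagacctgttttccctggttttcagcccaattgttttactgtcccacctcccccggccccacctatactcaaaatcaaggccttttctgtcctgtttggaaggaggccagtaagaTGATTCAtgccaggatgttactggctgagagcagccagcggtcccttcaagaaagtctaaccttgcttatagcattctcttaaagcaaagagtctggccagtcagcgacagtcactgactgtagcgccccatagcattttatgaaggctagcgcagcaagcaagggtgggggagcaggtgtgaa
Epas1 intron 6 (chr17:86812145-86812444): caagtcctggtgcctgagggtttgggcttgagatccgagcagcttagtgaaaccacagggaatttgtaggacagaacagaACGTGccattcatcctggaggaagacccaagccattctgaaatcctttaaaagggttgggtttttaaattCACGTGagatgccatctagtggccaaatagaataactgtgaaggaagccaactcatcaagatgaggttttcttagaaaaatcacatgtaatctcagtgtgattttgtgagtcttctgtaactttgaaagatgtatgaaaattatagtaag
Hif1a promoter (chr12:73907704-73907903): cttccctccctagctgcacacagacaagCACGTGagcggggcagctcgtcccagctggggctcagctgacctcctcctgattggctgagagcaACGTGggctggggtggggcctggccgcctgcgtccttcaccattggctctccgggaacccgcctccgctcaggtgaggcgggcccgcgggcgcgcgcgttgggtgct
Egln1 promoter (chr8:124949325-124949524, minus strand): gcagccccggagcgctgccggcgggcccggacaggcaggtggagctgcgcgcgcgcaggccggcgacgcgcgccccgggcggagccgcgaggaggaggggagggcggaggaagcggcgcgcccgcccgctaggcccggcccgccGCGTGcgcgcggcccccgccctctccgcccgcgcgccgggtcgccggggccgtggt

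The *Egln3* intron held a single ACGTG close to its summit, and the *Hif3a*-side peak held TGANTCA and neither HIF core. The *Hif1a* promoter held CACGTG, a palindrome that counts on both strands, and a further ACGTG, while the *Egln1* stretch was rich in CG and held 1 GCGTG. Read on either strand, ACGTG was present in 14.8% and GCGTG in 29.6% of the 200 bases before 41520 start sites of coding genes, and TGANTCA in 4.55%. Around the summits of consensus peaks, ACGTG was in 24.3% of promoter windows and 15.2% of the others, GCGTG in 49.4% and 20%, and TGANTCA in 11% and 34.7%. A match is a description of the letters and not a bound site.

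Accessible promoters were found for 8 of the 10 genes in all 6 libraries. *Epas1*, which encodes HIF-2α, and *Arnt2*, the β partner found mainly in neural tissue, had no consensus promoter peak in any condition. The nearest consensus peak was 21073 bp from the *Epas1* start site, and 11521, 16141 and 53729 bp from the 3 *Arnt2* start sites. Peaks within 2000 bp of an *Arnt2* start site were listed in 4 libraries (1 at 21% O2, both at 1% O2 and 1 at <0.1% O2), with 16 to 24 fragments at the summit, and did not share over 200 bp in both replicates of a condition. *Hif1a* was open at its inner start site (73907904) and had no consensus peak nearer than 6127 bp to the outer one (73901375). *Hif3a* had its consensus promoter peaks around the inner start site (17056679) and none nearer than 3347 bp to the outer one (17062427), though a peak of 84 fragments in replicate 1 at 1% O2 lay 2025 bp from it. Of the 33 consensus peaks, 26 were present in all conditions (78.8%, against 68.3% of the series) and 26 in every library, which are those tested.

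The *Hif1a* promoter, which drives the main oxygen-regulated α subunit, had the highest mean pileup of the family at 21% and 1% O2 and was lower at <0.1% O2, where *Hif1an* stood above it (means 214 and 203). Its peak (chr12:73907502-73908575) lay over the inner start site, with its summit 20 bp from it. In a bulk library, fewer cells with an open site and less opening per cell cannot be told apart. Scaled summit pileups were 241 and 268 in normoxia, 291 and 281 at 1% O2, and 197 and 208 at <0.1% O2. The <0.1% O2 libraries lay below both normoxic libraries and the 1% O2 libraries above them. Against normoxia the log2 change was -0.33 at <0.1% O2 (95% interval -0.53 to -0.12, adjusted p = 0.0077 in limma) and 0.17 at 1% O2 (-0.03 to 0.38, adjusted p = 0.18). The local background scaled alike changed by -0.38 and -0.03 (log2), and the deposited fold by -0.02 at <0.1% O2. The fall did not pass without replicate 2 at 21% O2 (log2 change -0.24, adjusted p = 0.072) or replicate 1 at <0.1% O2 (-0.29, adjusted p = 0.071), nor with scaling by genome coverage (-0.49, adjusted p = 0.066), and it turned to 0.16 (adjusted p = 0.20) when the trend with GC content was subtracted, the peak holding 71.3% GC.

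*Hif3a*, whose products include inhibitory forms of the α subunit, had weak promoter peaks, and the nearer of them rose at 1% O2. That peak (chr7:17056069-17056458) sat in intron 2 of the longer transcripts, 489 bp inside the inner start site. Its scaled summit pileups were 47.6 and 60.8 in normoxia, 78.3 and 80.5 at 1% O2, and 40.9 and 55.9 at <0.1% O2. The 1% O2 libraries stood above the other 4, and the normoxic and <0.1% O2 libraries overlapped. The log2 change was 0.56 at 1% O2 (0.18 to 0.94, adjusted p = 0.018) and -0.17 at <0.1% O2 (-0.55 to 0.21, adjusted p = 0.48). The call at 1% O2 was lost without replicate 1 at 21% O2 (0.38, adjusted p = 0.16) and without either replicate at 1% O2 (0.57 and 0.54, adjusted p = 0.074 and 0.0999). The other *Hif3a* promoter peak (chr7:17058209-17059080), 1722 bp upstream and also in the window of the transcript 4833404L02Rik, had 54.4 to 69.9 in normoxia, 70.2 and 75.2 at 1% O2 and 53.1 and 63.1 at <0.1% O2, and passed the test in no comparison.

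*Arnt*, the β partner that all 3 α subunits can use, had a promoter that passed the test in no comparison. The peak (chr3:95433530-95434850) lay over all 4 start sites of the gene. Scaled summit pileups were 165 and 175 in normoxia, 187 and 185 at 1% O2, and 184 and 182 at <0.1% O2. Both hypoxic pairs stood slightly above the normoxic pair, but the log2 changes of 0.13 (-0.09 to 0.35) and 0.10 (-0.11 to 0.32) did not pass the test (adjusted p = 0.37 and 0.45).

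The *Vhl* promoter, that of the HIF ubiquitin ligase receptor, was lower at <0.1% O2 than in both other conditions. Its peak (chr6:113623671-113624720) had scaled summit pileups of 105 and 121 in normoxia, 129 and 121 at 1% O2, and 67.0 and 90.0 at <0.1% O2. Every library at <0.1% O2 lay below the other 4. The log2 change was -0.53 against normoxia (-0.83 to -0.24, adjusted p = 0.0027) and -0.69 against 1% O2 (-0.98 to -0.39, adjusted p = 0.00069), and at 1% O2 against normoxia it was 0.15 (-0.14 to 0.45, adjusted p = 0.43). Both calls were lost without replicate 1 at <0.1% O2, which leaves a single library in that condition. The changes were then -0.33 and -0.49. The GC trend took the fall against normoxia to -0.34 (adjusted p = 0.052). By the rank of the deposited fold, *Vhl* stood at percentiles 65.4 and 77.9 in normoxia, 90.4 and 87.8 at 1% O2, and 56.5 and 68.9 at <0.1% O2.

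Among the promoters of the prolyl hydroxylases, *Egln1* was lower at <0.1% O2, and *Egln2* and *Egln3* were higher at 1% O2. The log2 changes at 1% O2 were 0.11, 0.33 and 0.69 (adjusted p = 0.61, 0.012 and 0.0016), and those between the hypoxic levels -0.78, -0.46 and -0.36 (adjusted p = 0.00034, 0.0013 and 0.12). The differences between the genes were not tested. *Egln1* encodes PHD2, the main oxygen sensor of the HIF system. Its promoter peak (chr8:124949146-124950001) had scaled summit pileups of 97.9 and 99.3 in normoxia, 109.7 and 103.5 at 1% O2, and 53.1 and 72.4 at <0.1% O2. Both libraries at <0.1% O2 lay below the other 4. The log2 change was -0.67 against normoxia (-0.98 to -0.36, adjusted p = 0.00054) and -0.78 against 1% O2 (-1.10 to -0.47, adjusted p = 0.00034). The former was the largest fall of the family in the main limma fit, though not on the deposited fold. Both calls held with any single library left out. With the GC trend subtracted they were -0.28 (adjusted p = 0.14) and -0.43 (adjusted p = 0.062), and the 300 bases around the summit held 82.3% GC. Against normoxia *Vhl* then fell more (-0.34). The subtraction also takes out a change that GC-rich peaks share, and its part in the lost calls was not tested. The local background fell by 0.71 (log2), and the deposited fold changed by -0.07 (adjusted p = 0.77).

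*Egln2* encodes PHD1, and its promoter was among the most open of the family. The peak (chr7:27166228-27167449) had scaled summit pileups of 218 in each normoxic replicate, 279 and 268 at 1% O2, and 184 and 214 at <0.1% O2. The 3 conditions did not overlap. It rose by 0.33 (log2) at 1% O2 (0.12 to 0.54, adjusted p = 0.012) and was lower at <0.1% O2 than at 1% O2 (-0.46, -0.67 to -0.25, adjusted p = 0.0013), with -0.13 against normoxia (adjusted p = 0.30). The rise did not pass without replicate 1 (0.29, adjusted p = 0.11) or replicate 2 (0.35, adjusted p = 0.052) at 1% O2, nor with scaling by genome coverage (0.47, adjusted p = 0.11), and the deposited fold gave -0.033. The later fall did not pass without replicate 1 at <0.1% O2 (-0.36, adjusted p = 0.059) or with the GC trend subtracted (-0.28, adjusted p = 0.069).

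*Egln3* encodes PHD3, the hypoxia-inducible member. Its promoter peak (chr12:54203361-54204317), with the summit 4 bp from the start site, had scaled summit pileups of 61.5 and 48.0 in normoxia, 83.9 and 91.1 at 1% O2, and 71.3 and 65.2 at <0.1% O2. All 4 hypoxic libraries lay above the normoxic ones. It rose at 1% O2 by 0.69 (0.34 to 1.03, adjusted p = 0.0016) and was 0.33 higher at <0.1% O2, which did not pass (-0.02 to 0.67, adjusted p = 0.11) except without replicate 1 at 21% O2 (0.51, adjusted p = 0.028). The rise at 1% O2 held with any single library left out and with the GC trend subtracted (0.64, adjusted p = 0.0032). The local background rose with the summit, by 0.53 and 0.56 (log2), and the deposited fold changed by 0.09 and -0.16. Its rank by fold was 65.7 and 47.6 in normoxia, 62.3 and 64.2 at 1% O2, and 47.5 and 43.4 at <0.1% O2.

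*Hif1an*, encoding FIH, had a promoter that did not pass the test in any comparison or alternative. The peak (chr19:44562466-44563182) had scaled summit pileups of 227 and 240.2 in normoxia, 226 and 234 at 1% O2, and 214 and 213 at <0.1% O2. The log2 changes were -0.02 at 1% O2 (-0.23 to 0.18, adjusted p = 0.89) and -0.13 at <0.1% O2 (-0.33 to 0.08, adjusted p = 0.31). It also had the highest mean rank by deposited fold in the family, 94.2 over the 6 libraries.

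**Figure D1:**
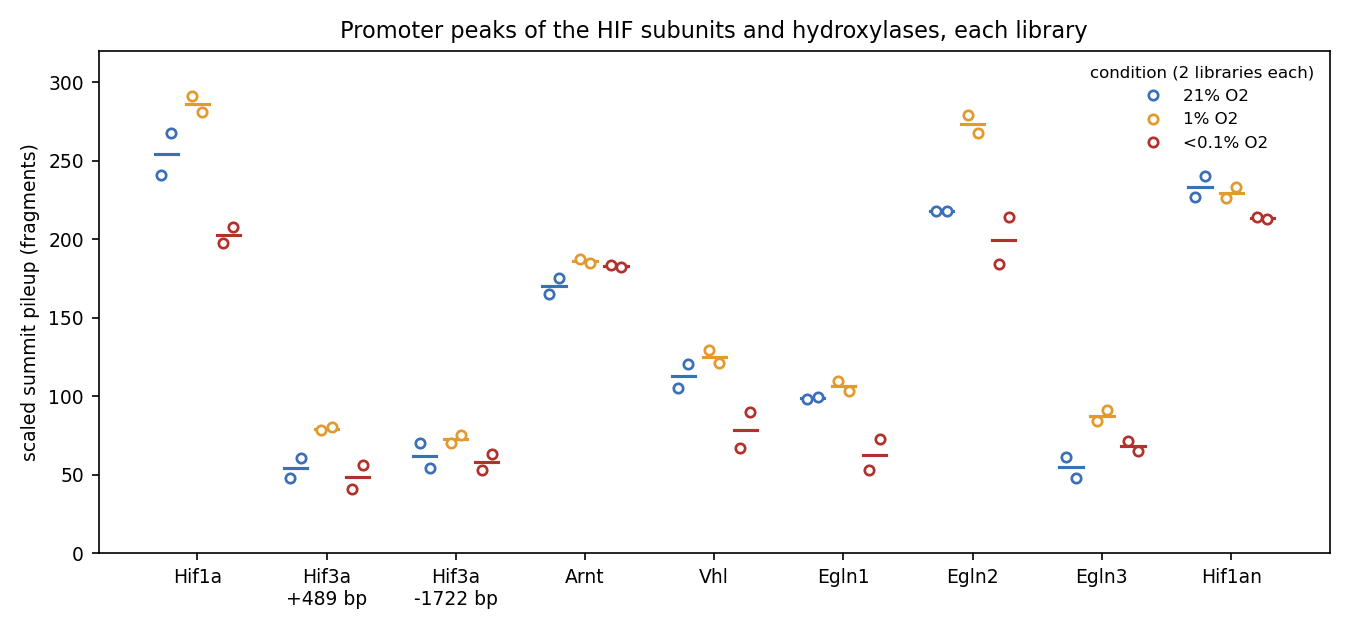
Scaled summit pileup (fragments, y axis) of the 9 promoter peaks present in all libraries, with each library as a circle and the mean of the 2 libraries of a condition as a bar. *Hif1a*, *Vhl*, *Egln1*, *Egln2* and *Hif1an* have their <0.1% O2 libraries (red) below the other 4. Of these, *Hif1a*, *Vhl* and *Egln1* passed the test against normoxia. *Egln3* (48.0 and 61.5) and *Arnt* have their normoxic libraries (blue) below the rest, and *Hif1an* lies between 213 and 240.2. The share of all peaks separated in this way is not given.

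Across the 9 promoter peaks of the family, 3 were higher and 0 lower at 1% O2. Among all 12959 promoter peaks tested 14.5% were higher and 19.8% lower in that comparison. At <0.1% O2 against normoxia, 3 were lower and 0 higher, beside 38.4% and 14.0% of all promoter peaks, so the share of the family was close to the background. At <0.1% O2 against 1% O2, 5 of 9 were lower (*Hif1a*, *Hif3a*, *Vhl*, *Egln1* and *Egln2*) and 0 higher, beside 21.2% and 4.31%. The *Hif1a* fall in that comparison was -0.50 (-0.70 to -0.29, adjusted p = 0.00043), and -0.07 (adjusted p = 0.74) with the GC trend subtracted. The *Hif3a* fall was -0.73 (-1.11 to -0.35, adjusted p = 0.0042), which did not pass without replicate 1 at <0.1% O2 (-0.52, adjusted p = 0.12) or with the GC trend subtracted (-0.42, adjusted p = 0.15). The median log2 change over the 9 peaks was 0.17 at 1% O2, -0.13 at <0.1% O2 and -0.46 between the hypoxic levels, against -0.04, -0.19 and -0.15 for all promoter peaks. The 2 *Hif3a* peaks belong to 1 gene and are not independent.

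None of the 11 promoter calls was made on the deposited fold. The scaled background near the peak went the same way as the summit in each of the 11, and its part in them was not tested. Both values come from the same library and were solved from the same fold and p-value, so they are not independent. By the rank of the deposited fold, a change was called when both libraries lay beyond both others and the mean moved by at least 10 points. *Vhl* was then higher at 1% O2 (by 17.5 points, 1 of 9, with 0 lower), beside 11.9% of all promoter peaks higher and 16.5% lower. At <0.1% O2 *Egln3* was lower than in normoxia (by 11.2 points, 1 of 9, with 0 higher), beside 26.5% lower and 12.0% higher. Between the hypoxic levels *Vhl* and *Egln3* were lower at <0.1% O2 (by 26.4 and 17.8 points, 2 of 9, with 0 higher), beside 20.5% lower and 9.14% higher. For *Egln3* against normoxia the rule was met narrowly (47.50 against 47.56 for the nearest libraries), and it was not met with ranks over the whole list of each library, where 62.7 and 55.9 at <0.1% O2 overlapped 70.3 and 57.9 in normoxia. An exact permutation test of 2 libraries against 2 cannot go below 0.333, so no p is given for ranks.

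**Figure D2:**
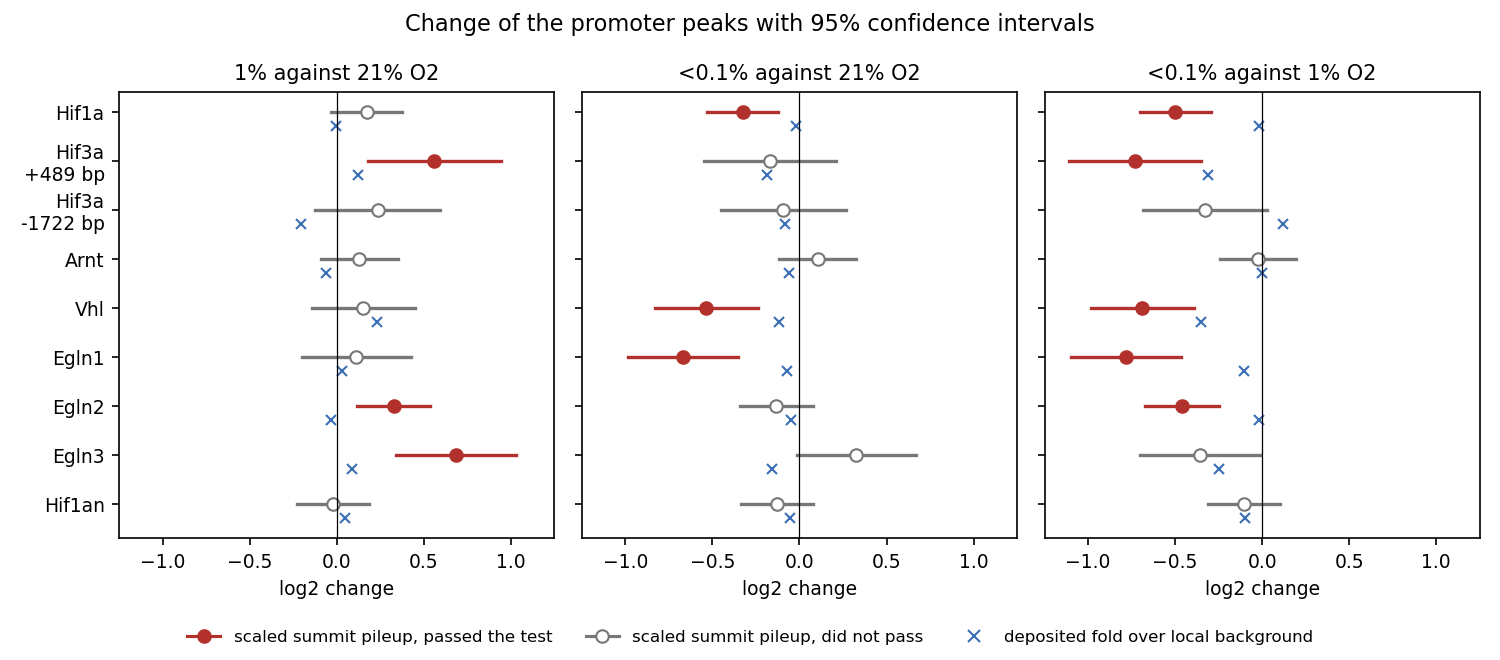
Log2 change of each promoter peak (x axis) in the 3 comparisons. Circles with 95% confidence intervals are the scaled summit pileup, filled red where the change passed the test, and blue crosses are the deposited fold, which lie nearer to 0 for *Egln1* (-0.07 against -0.67 at <0.1% O2).

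By height the promoters fell into an upper and a lower group. Mean scaled summit pileups over the 6 libraries were 248 for *Hif1a*, 230.3 for *Egln2*, 226 for *Hif1an* and 179.6 for *Arnt*, followed by 105 for *Vhl*, 89.3 for *Egln1*, 70.2 for *Egln3* and 64.3 for the higher of the *Hif3a* peaks. The lowest *Arnt* library (165) lay above the highest *Vhl* library (129). Neighbours in this order overlapped over the libraries, except *Hif1an* and *Arnt* and except *Arnt* and *Vhl*. The order differed by condition: *Hif1an* was above *Egln2* at 21% O2 (233 against 218), *Hif3a* above *Egln3* at 21% O2 (62.2 against 54.8), and *Egln3* above *Egln1* at <0.1% O2 (68.2 against 62.7). By deposited fold it differed too, with *Hif3a* at a mean rank of 8.36 and *Hif1an* at 94.2. A pileup is a height at 1 position and does not scale with gene length.

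Away from promoters, 10 of the 16 peaks were present in all libraries, and 3 of them rose at both hypoxic levels under every alternative tried, the deposited fold included. The steepest by summit pileup, though not by deposited fold, lay in intron 1 of *Egln3* (chr12:54191813-54192469), 11746 bp into the gene. A hypoxia response element has been described there for the human gene. Its scaled summit pileups were 43.4 and 37.4 in normoxia, 109.7 and 106.1 at 1% O2, and 132 and 95.2 at <0.1% O2. Each hypoxic library lay above both normoxic ones, with no overlap. The log2 change was 1.42 at 1% O2 (1.09 to 1.76, adjusted p = 1.8e-08) and 1.48 at <0.1% O2 (1.15 to 1.81, adjusted p = 4.3e-09), and 0.06 between the hypoxic levels (-0.28 to 0.39, adjusted p = 0.84). The deposited fold rose by 0.54 and 0.57 (adjusted p = 0.041 and 0.022).

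The second lay in an intron of *Ppp5c* (chr7:17016944-17017550), a phosphatase gene next to *Hif3a*, 39482 bp from the *Hif3a* start site and 10719 bp from that of *Ppp5c*. It had 64.3 and 81.1 in normoxia, 173 and 179 at 1% O2, and 182 and 207 at <0.1% O2, again without overlap. It rose by 1.28 (1.02 to 1.54, adjusted p = 8.7e-10) and 1.42 (1.17 to 1.68, adjusted p = 5.5e-11). The deposited fold rose less, by 0.48 and 0.59 (adjusted p = 0.020 and 0.0056), and the scaled local background rose by 0.73 and 0.91 (log2). The third lay in an intron of *Ctsk* (chr3:95502194-95502731), a cathepsin gene next to *Arnt*, 68043 bp from the *Arnt* start sites and 3215 bp from that of *Ctsk*. It had 39.2 and 40.6 in normoxia, 67.0 and 85.8 at 1% O2, and 79.2 and 77.6 at <0.1% O2, and rose by 0.93 (0.57 to 1.28, adjusted p = 8.0e-05) and 0.98 (0.62 to 1.33, adjusted p = 2.3e-05). Its deposited fold rose by 0.70 and 0.58 (adjusted p = 0.0069 and 0.0082). Both peaks lie within 20 kb of the ends of the genes, and nothing measured here ties them to *Hif3a* or *Arnt*.

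**Figure D3:**
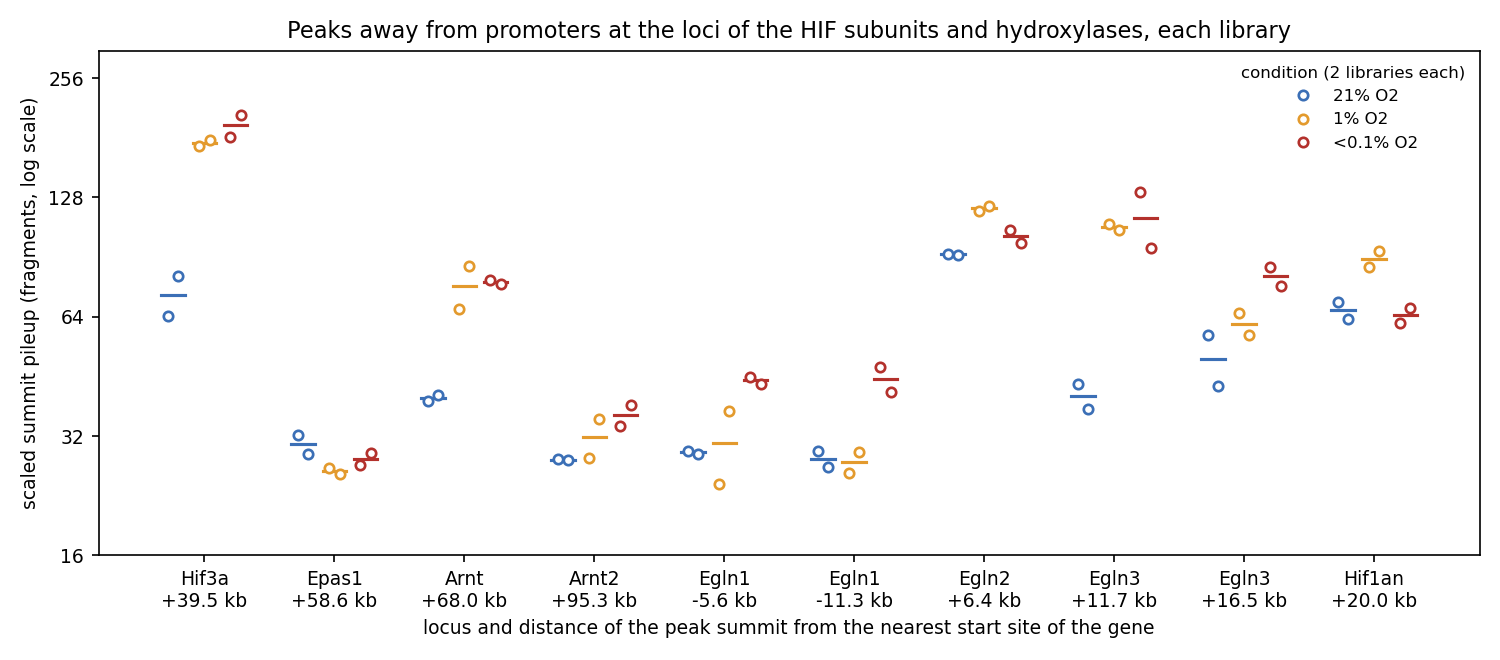
Scaled summit pileup (fragments, log scale) of the 10 peaks away from promoters that were present in all libraries, labelled by gene and distance of the summit from the start site (positive into the gene), with libraries as circles and the mean of the 2 libraries of a condition as a bar. At the *Hif3a*-side, *Arnt*-side, *Egln2*, *Arnt2* and both *Egln3* peaks, the hypoxic libraries all lie above the normoxic ones. The margin is narrow for *Arnt2* (28.2 against 28.0) and for the *Egln3* peak at 16497 bp (57.5 against 57.4). The share of all peaks separated in this way is not given.

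At the *Egln* loci further peaks passed the test at 1 hypoxic level. A peak 16497 bp into *Egln3*, also in intron 1 (chr12:54186993-54188053), had 57.4 and 42.7 in normoxia, 65.4 and 57.5 at 1% O2, and 85.2 and 76.6 at <0.1% O2. It rose at <0.1% O2 by 0.71 (0.34 to 1.07, adjusted p = 0.0014), while its deposited fold went the other way (-0.13, adjusted p = 0.63). Scaling by genome coverage left 0.54 (adjusted p = 0.062). A peak 5559 bp upstream of *Egln1* (chr8:124954638-124955031) had 29.4 and 28.8 in normoxia, 24.2 and 37.1 at 1% O2, and 45.2 and 43.4 at <0.1% O2, and another 11333 bp upstream (chr8:124959831-124960837) had 29.4 and 26.7, 25.8 and 29.2, and 47.8 and 41.4. Both rose at <0.1% O2, by 0.61 (adjusted p = 0.030) and 0.67 (adjusted p = 0.015), where the *Egln1* promoter fell.

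These *Egln1* calls were close to the threshold, and neither was made with the deposited fold, with scaling by genome coverage or with the GC trend subtracted. The call of the nearer peak was also lost with quantile scaling (0.50, adjusted p = 0.067). The nearer peak did not pass when any of the 4 libraries compared was left out (0.57 to 0.64, adjusted p = 0.054 to 0.14). The farther one did not pass without replicate 2 at 21% O2 (0.60, adjusted p = 0.062) or replicate 1 at <0.1% O2 (0.56, adjusted p = 0.14), and it was also higher than at 1% O2 (0.70, adjusted p = 0.023), a call lost without either library of either level (0.58 to 0.80, adjusted p = 0.055 to 0.21). That call was also lost with the deposited fold (0.24, adjusted p = 0.37) and with scaling by genome coverage (0.39, adjusted p = 0.26). With the GC trend subtracted it was lost as well (0.55, adjusted p = 0.11). In intron 3 of *Egln2* a peak (chr7:27159938-27160280) had 92.3 and 91.8 in normoxia, 119 and 122 at 1% O2, and 106.1 and 98.3 at <0.1% O2. It rose at 1% O2 by 0.39 (0.11 to 0.66, adjusted p = 0.022), and leaving out any of the 4 libraries compared gave 0.36 to 0.40 with adjusted p = 0.051 to 0.13. On the deposited fold the *Egln2* rise was 0.21 (adjusted p = 0.14), which did not pass. A peak 19975 bp downstream of the *Hif1an* start site (chr19:44582606-44583072) had 69.9 and 63.0, 85.5 and 93.7, and 61.8 and 67.2. It rose at 1% O2 by 0.43 (adjusted p = 0.033) and was lower at <0.1% O2 than at 1% O2 (-0.47, adjusted p = 0.029).

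The *Hif1an* rise was lost without replicate 2 at 21% O2 (0.36, adjusted p = 0.15) and without replicate 1 (0.49, adjusted p = 0.078) or replicate 2 (0.36, adjusted p = 0.22) at 1% O2, and with scaling by genome coverage or quantiles or the GC trend subtracted (0.38 to 0.57, adjusted p = 0.055 to 0.062). Its difference between the hypoxic levels was lost without either library of either level (-0.54 to -0.41, adjusted p = 0.067 to 0.20). On the deposited fold the *Hif1an* rise was 0.18 (adjusted p = 0.29) and the difference between the levels -0.32 (adjusted p = 0.13), and neither passed. With the GC trend subtracted that difference was -0.38 (adjusted p = 0.13). The peaks in *Epas1* intron 6 and in *Arnt2* (chr7:84272199-84272695), with 25.6 to 32.2 and 27.8 to 38.3 over the 6 libraries, passed in no comparison. In all, 5 of the 10 peaks were higher and 0 lower at 1% O2, beside 20.7% and 17.4% of the 15473 tested peaks away from promoters. At <0.1% O2 against normoxia 6 were higher and 0 lower, beside 32.1% and 11.8%, and between the hypoxic levels 1 was higher and 1 lower at <0.1% O2, beside 19.2% and 3.35%. The median log2 change of the 10 was 0.35 at 1% O2 and 0.64 at <0.1% O2, against 0.03 and 0.17 for all such peaks. Scaled by genome coverage instead, 3 were higher in each comparison with normoxia. The lost calls at 1% O2 had larger changes under it (0.53, adjusted p = 0.081 for *Egln2* and 0.57, adjusted p = 0.062 for *Hif1an*), and it moved the median of all peaks by 0.14 at 1% O2 and -0.17 at <0.1% O2.

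**Figure D4:**
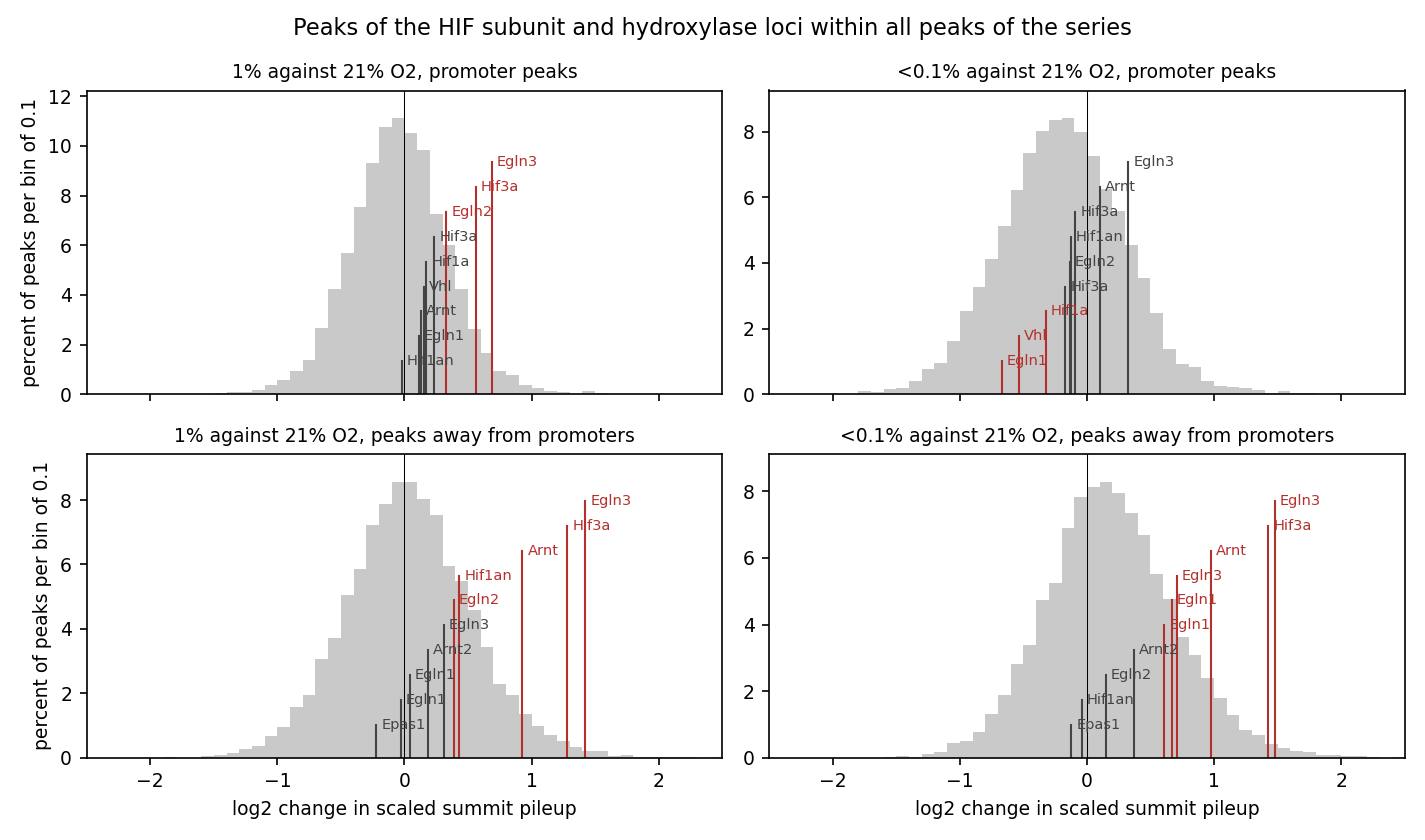
Distribution of the log2 change in scaled summit pileup (x axis, bins of 0.1, y axis in percent of peaks) for all 12959 promoter peaks (top) and all 15473 other peaks (bottom) present in all libraries, at 1% O2 (left) and <0.1% O2 (right) against 21% O2. Vertical lines are the peaks of the 10 loci, red where they passed the test, and the *Hif3a*-side and inner *Egln3* peaks lie in the right tail (1.28 to 1.48).

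Presence of peaks changed at 6 places. A peak was counted as gained when it was in both libraries of the hypoxic condition and in neither normoxic library, and as lost in the opposite case. At 1% O2, 1 of the 33 peaks was gained and 1 lost, beside 10.4% and 0.997% of all 41308 consensus peaks. At <0.1% O2, 5 were gained and 1 lost, beside 9.95% and 1.47%. The peak gained at both levels lay in intron 2 of *Epas1* (chr17:86801297-86801591), with 20 and 21 fragments at the summit at 1% O2 and 30 and 25 at <0.1% O2. Gained at <0.1% O2 were also a peak in intron 1 of *Arnt* (chr3:95445403-95445649, 40 and 32 fragments), 1 in an *Arnt2* intron (chr7:84279368-84279691, 34 and 18 fragments) and 2 upstream of *Egln3*.

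The *Egln3* pair lay 1330 bp (chr12:54205097-54205390) and 13372 bp (chr12:54217105-54217358) before the start site, with 31 and 32 and with 27 and 26 fragments at <0.1% O2. Each was also listed in 1 library at 1% O2, with 31 and 17 fragments. The lost peak lay 18327 bp upstream of *Egln2* (chr7:27184949-27185245) and had 14 and 21 fragments at 21% O2. A further *Arnt2* intron peak (chr7:84355857-84356390) was listed in all libraries but replicate 1 at 1% O2, with 14 to 21 fragments. The lowest summit that was called held 11 fragments in the normoxic libraries and 13 in the others, and the part of depth in these differences was not tested. With lists cut to the same number of peaks per library, 1 peak was gained at <0.1% O2 and 0 at 1% O2.

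**Figure D5:**
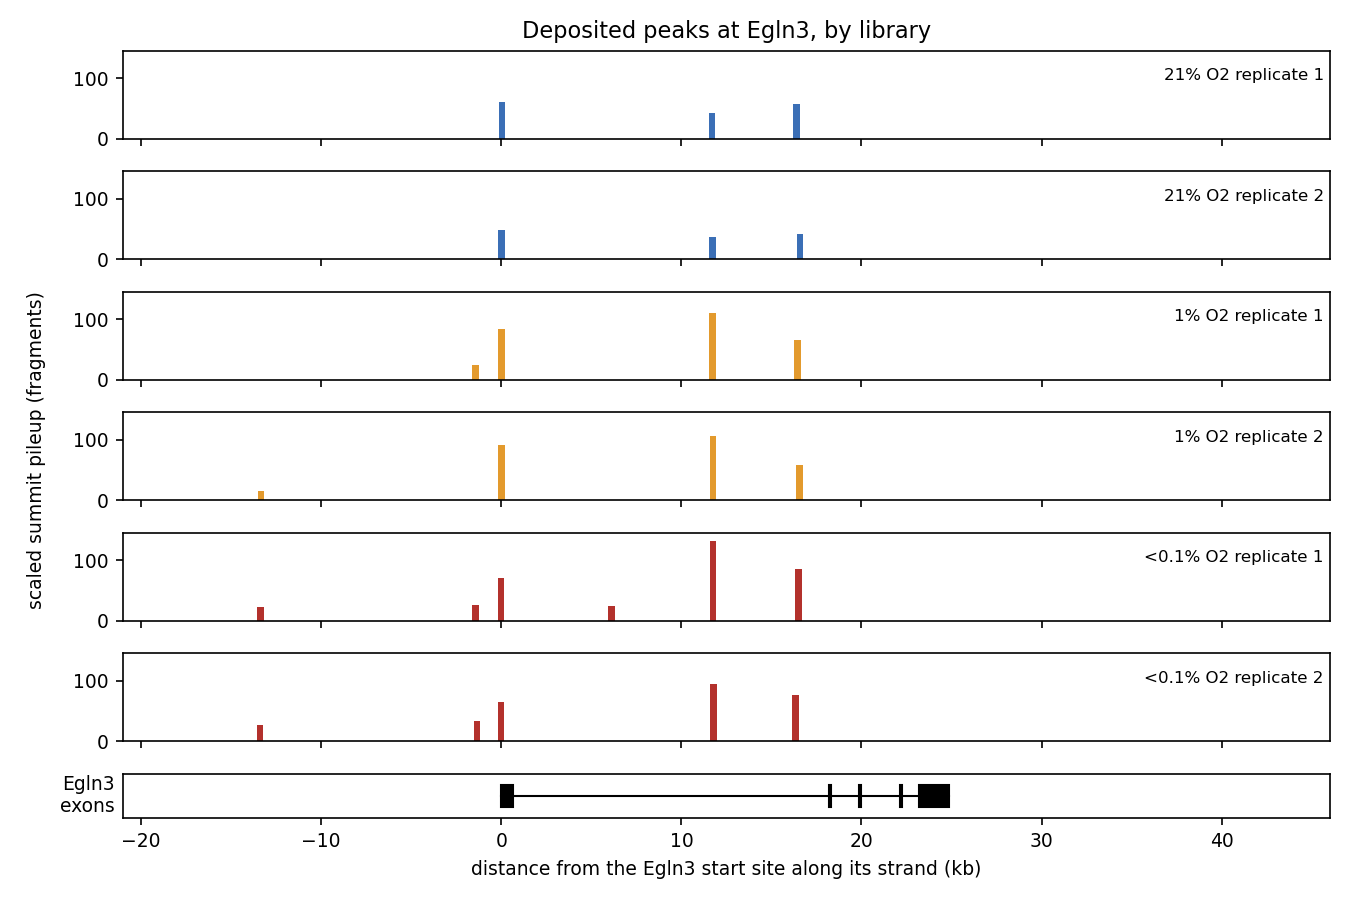
Peaks listed at *Egln3* in each library, as bars at the summit (x axis, kb from the start site along the gene) with the scaled summit pileup in fragments as height (y axis), above the exons of the gene. The intron 1 peak at 11746 bp is higher in the 4 hypoxic libraries (95.2 to 132) than in the normoxic ones (37.4 and 43.4), and the bars left of 0 are seen in hypoxic libraries only.

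There were 7 promoters of neighbouring genes at these loci, all present in every library. At <0.1% O2 against normoxia, 4 of 7 were lower and 0 higher, beside 38.4% and 14.0% of all promoter peaks. The 4 included *Snapc1* beside *Hif1a* (-0.42, adjusted p = 0.0094) and the shared promoter of *Exoc8* and *Sprtn* beside *Egln1* (-0.83, adjusted p = 1.8e-05). At the *Vhl* locus, *Brk1* on one side was higher at 1% O2 (0.33, adjusted p = 0.033) and *Irak2* on the other was lower at <0.1% O2 (-0.39, adjusted p = 0.022). The *Ppp5c* promoter, whose intron held the rising peak, was lower at <0.1% O2 (-0.34, adjusted p = 0.040), and the *Rab4b* and *Mia* promoter beside *Egln2* was lower at 1% O2 (-0.25, adjusted p = 0.032). The 1% O2 count was 1 higher and 1 lower of 7, beside 14.5% and 19.8%. Between the hypoxic levels 2 of 7 were lower at <0.1% O2 and 0 higher, beside 21.2% and 4.31%. These were *Exoc8* and *Sprtn* (-0.77, adjusted p = 0.00024) and *Snapc1* (-0.40, adjusted p = 0.030). On the deposited fold they did not pass (-0.28 and -0.095, adjusted p = 0.24 and 0.58). *Ndufb8* beside *Hif1an* passed in no comparison. None of the changes against normoxia was called on the deposited fold (-0.03 for *Exoc8* and *Sprtn*, -0.21 for *Snapc1* and for *Irak2*, -0.18 for *Ppp5c*, 0.32 for *Brk1* and -0.33 for *Rab4b* and *Mia*, adjusted p = 0.056 to 0.91). The other alternatives were not run for these peaks.

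Partners of the family outside these loci were taken from lists of 30 genes, also drawn up with earlier results of these data known, of which 25 had a promoter peak in all libraries. At 1% O2, 7 of the 25 were lower and 2 higher, beside 19.8% and 14.5% of all promoter peaks. At <0.1% O2 17 were lower and 2 higher, beside 38.4% and 14.0%, and between the hypoxic levels 14 were lower at <0.1% O2 and 0 higher, beside 21.2% and 4.31%. The pVHL ligase subunits gave 2 of 4 lower at <0.1% O2 (*Cul2* and *Elob*, the latter named after its values were seen), the coactivators and their competitors 5 of 7, and the regulators of HIF or hydroxylase stability 9 of 12 lower and 2 higher, and the other bHLH-PAS factors 1 of 2 lower. The largest falls were those of *Rack1*, a scaffold known to promote oxygen-independent degradation of HIF-1α (273 and 287 in normoxia, 152 and 131 at 1% O2, 137 and 118 at <0.1% O2, log2 change -1.14, adjusted p = 7.6e-10), of *Cul2*, the cullin of the pVHL ligase (-1.12, adjusted p = 6.0e-06), and of *Siah2*, a ubiquitin ligase of the prolyl hydroxylases (-1.07, adjusted p = 1.6e-09). The 2 higher were *Usp20*, a deubiquitinase (323 and 329.8 in normoxia, 473 and 509 at 1% O2, 500.1 and 557 at <0.1% O2, log2 change 0.69, adjusted p = 1.1e-07), and *Os9*, a lectin reported to bind HIF-1α (0.61, adjusted p = 1.6e-05). No promoter peak in all libraries was found for *Ahrr*, *Sim1*, *Sim2*, *Npas1* and *P4htm*. The alternatives, among them the deposited fold and the GC trend, were not run for these genes. The median log2 change of the 25 at <0.1% O2 was -0.42, beside -0.19 for all promoter peaks.

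The promoter patterns most like that of *Egln1* were those of *Lyplal1*, *Cib2* and *Tmx1*. *Egln1* was taken as the member whose main promoter peak changed most at <0.1% O2 against normoxia in the main limma fit. Likeness was the Euclidean distance over the 6 libraries in centred log2 scaled pileup, which was 0.161, 0.180 and 0.186 among 11621 genes. Their log2 changes at <0.1% O2 were -0.62, -0.55 and -0.66, beside -0.67 for *Egln1*. The genes were chosen by these same library values, so similar changes follow from the choice.

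In the windows of 300 bases around the summits of the 33 peaks, ACGTG was found at 8 and GCGTG at 11, beside 18.5% and 30.7% of all consensus peaks. Those with ACGTG were the promoters of *Hif1a*, *Vhl* and *Egln1* (1 each) and of *Snapc1* (2) and *Exoc8* and *Sprtn* (1), the inner intron peak of *Egln3* (1), the distal peak upstream of *Egln3* (1) and the intron 6 peak of *Epas1* (3 counts, of which 2 are the strands of CACGTG). The *Hif3a*-side and *Arnt*-side peaks that rose, and the promoters of *Arnt*, *Egln2*, *Egln3*, *Hif3a* and *Hif1an*, held no ACGTG in this window. Of the members' promoters, GCGTG was in those of *Vhl* (3), *Arnt* (1), *Egln1* (1) and *Egln2* (1). In RefSeq promoter windows (GRCm38.p6, matched for 9 of the 10 genes), *Arnt2* had 76.7% GC with 40 CG dinucleotides, against a median of 52.7% and 7, without a peak over it.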

How the data were processed

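GL261 libraries (6 in all, 2 each at 21%, 1% and <0.1% O2) were grouped by the treatment named in the labels. The authors trimmed reads with Trimmomatic, aligned them to mm10 with Bowtie2 2.2.5, removed duplicates with Picard and called peaks in each library with MACS2 2.1.1.2, with no control sample named and no pooling of replicates, and removed peaks in blacklisted regions. The deposited lists give per peak the fold (a ratio of pileup over local background), its significance on a -log10 scale (p and q, written by the authors' caller), and the position of the summit in bases. No read counts were used, so depth is known only through the peaks.

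The whole-number summit pileup and the background were solved from the deposited fold and p-value for 100% of peaks, and the smallest background was taken as genome coverage. Consensus peaks shared over 200 bp in both replicates of a condition and were merged over the 3 conditions. Start sites came from GENCODE M21 and sequence from GRCm38. Pileups were divided by median-of-ratios size factors over the 28432 peaks of all 6 libraries, and log2 values were tested with limma 3.58.1 (trend, 1 fit, Benjamini-Hochberg over all 28432 peaks, threshold 0.05). The script was tested on simulated data. With 2 libraries a condition, intervals rest on the spread pooled over peaks. Replicate numbers did not pair libraries (correlations of the deviations -0.05 to 0.01), so no block was used. Alternatives were the deposited fold, coverage and quantile scaling, a GC trend, overlap, stricter and equal lists, other windows, the block and leaving out each library. Python 3.11.15, pandas 2.3.3, numpy 2.4.6, scipy 1.17.1, pysam 0.24.0 and R 4.3.3 were used.

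All 10 genes were named with their promoter peaks, with the peaks away from promoters that were absent from a condition or passed a test, the 3 lowest and 3 highest called pathway genes at <0.1% O2 (only 2 were higher), and the 3 genes most like the member whose main promoter peak changed most. The members and lists were chosen with earlier results of these data known.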

Additional observations from a re-analysis of the deposited data

Results flagged for a closer look

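Effects of 1% O2 and of <0.1% O2 on the same peak differed for 7 peaks, by the limma test of the 2 hypoxic levels against each other. For promoters the difference (log2, <0.1% less 1% O2) was -0.69 at *Vhl*, -0.73 at the inner *Hif3a* peak, -0.46 at *Egln2*, -0.78 at *Egln1* and -0.50 at *Hif1a*. Away from promoters it was 0.70 at the peak 11333 bp upstream of *Egln1* and -0.47 at the peak 19975 bp from the *Hif1an* start site. Without replicate 1 at <0.1% O2, the calls at *Vhl*, *Hif3a*, *Egln2* and both peaks away from promoters were lost. The difference was then -0.49 at *Vhl*, -0.52 at *Hif3a* and -0.36 at *Egln2*, and 0.58 and -0.42 at the upstream *Egln1* and *Hif1an* peaks. The calls of these last 2 were also lost without any other library of the 2 hypoxic levels. Such a fit leaves a single library in a condition, so a call can be lost with little change in its size. The *Egln1* and *Hif1a* promoter differences passed with any library left out. With the GC trend subtracted, 1 of the 5 promoter differences passed, that of *Vhl*.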

How the results depend on the processing

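Of 57 tests of single peaks under up to 13 alternatives, 616 results kept their direction and side of the threshold, 42 that were not called changed sign and were still not called, 69 called changes were no longer called, 8 became called and 3 called changes turned. The 3 were *Egln2* promoter at 1% O2 with the deposited fold (-0.033), *Hif1a* promoter at <0.1% O2 with the GC trend subtracted (0.16), and the *Egln3* intron peak at 16497 bp at <0.1% O2 with the deposited fold (-0.13). Among the 11 promoter calls, 0 were made on the deposited fold and 4 with the GC trend subtracted.

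Leaving out 1 library gave 1 to 3 promoters higher at 1% O2 (3 with all), 1 to 3 lower and 0 to 1 higher at <0.1% O2 (3 and 0), and 2 to 5 lower between the hypoxic levels (5). The deposited fold gave 0, 0 and 0 for the 3 main counts, the GC trend 3, 0 and 1, and the rank of the fold 1, 1 and 2. Away from promoters, leaving out 1 library gave 3 to 5 higher at 1% O2 (5), 4 to 6 at <0.1% O2 (6), and 0 to 1 lower and 0 to 2 higher between the levels (1 and 1). The deposited fold and scaling by coverage each gave 3 higher at 1% O2 and 3 at <0.1% O2. Between the levels the higher count was 0 with the fold, with coverage and with the GC trend, 2 by rank of the fold and 3 by rank of the pileup, and the lower count 0 with the fold and the GC trend. By rank of the fold, 1 was lower at 1% O2. The median rank change of the promoters at 1% O2 (2.30) was -1.08 to 2.52 without 1 library, 5.42 by pileup and 4.82 by -log10 q.

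The 33 peaks became 18 without flanks, and the 26 in all conditions 14 without flanks and 16 when the nearest start site had to be a member's. Gains at 1% O2 (1) were 1 to 3 without 1 library, 0 with lists of equal length, 0 with -log10 q of at least 10 and 2 with flanks of 50 kb. Gains at <0.1% O2 (5) were 5 to 8, 1, 3 and 8, and 3 without flanks. Losses (1 at each level) were 1 to 2 without 1 library, and 0 with the stricter q, without flanks or by nearest start site. The replicate block left the promoter counts at 3, 3 and 5 and changed none of the 24 calls, so the pairing by number altered nothing. The cause of these differences was not tested.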
